A study of Mus musculus with 6 samples.

Results

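The immunoglobulin gene segments described here are all genes of the deposited comparison whose annotated class starts with IG_, and they number 38 of the 2195 genes listed. They comprised 17 heavy chain genes (16 variable segments and the constant gene Ighe), 17 kappa variable segments and 4 lambda genes (Iglv1, Iglv3, Iglj1 and Iglc1). RNA-Seq of whole PBS-flushed colon compared 3 samples of Gab1fl/fl mice, labelled WT, with 3 of Gab1IEC-KO littermates, in which a Villin promoter drives Cre so that floxed Gab1 is removed in intestinal epithelial cells and not by design in B cells. All mice were 8 to 10 weeks old and all had drunk 3% dextran sulfate sodium (DSS), a detergent that injures the colonic epithelium, for 7 days, so no group without DSS entered the comparison. The labels do not say that each sample came from a separate animal, and p-values measure the spread between these samples only.

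The listing itself was a selection: a gene entered it when the authors' own test of these same 6 libraries gave p under 0.05 before adjustment. The 38 genes were therefore chosen, in effect, by the contrast described here, and every difference between genotypes below is a description and not independent evidence. Of the variable (V) segments annotated in GENCODE M21, 16 of 115 heavy, 17 of 100 kappa and 2 of 3 lambda segments were listed, and of 164 immunoglobulin pseudogenes 0 were. The abundant constant genes Igha, Ighm, Ighg1, Ighg2b, Ighg2c, Ighg3, Ighd and Igkc, the joining chain gene Jchain and Gab1 itself were not among the listed genes and were not analysed here. The targeted deletion could therefore not be checked in these values.

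An antibody has a pair of heavy chains and a pair of light chains, and each light chain is either kappa or lambda. A developing B cell joins 1 of many V segments to a J segment, and in the heavy chain also to a D segment, and the resulting V exon is spliced to a constant (C) exon, so that a cell and all of its descendants transcribe chiefly the same V segment for each chain. Plasma cells, which secrete antibody, transcribe these genes at very high levels, and in the gut most of them make IgA. The counts hold reads per gene and no junction sequences, so clones were not measured, and in whole tissue fewer cells of a type and less RNA per cell cannot be told apart.

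The sequences that the results turn on are shown first, from the GENCODE M21 transcripts on GRCm38, in the direction of transcription. The lambda 1 set lies on chromosome 16, with Iglv1 at chr16:19085017-19085500, Iglj1 at chr16:19063225-19063262 and Iglc1 at chr16:19061618-19062071, all on the minus strand. The parts shown are the end of the V segment, with its conserved cysteine codon in capitals, the whole J segment and the start of the C exon, which are adjoining in a rearranged and spliced lambda 1 transcript.
Iglv1, last 60 coding bases: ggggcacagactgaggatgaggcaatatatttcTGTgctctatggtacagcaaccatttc
Iglj1, whole segment: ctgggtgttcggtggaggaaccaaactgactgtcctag
Iglc1, first 60 coding bases: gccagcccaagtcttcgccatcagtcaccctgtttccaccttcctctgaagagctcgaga

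Heavy segments lie on the minus strand of chromosome 12, and the last 60 coding bases of the 4 that led, or shared the lead of, the listed heavy segments in a library are given with the cysteine codon in capitals. They are Ighv2-2 (chr12:113588267-113588702), the leading listed heavy segment of the Gab1fl/fl colons, Ighv5-17 (chr12:113859149-113859670), Ighv14-2 (chr12:113994469-113994898) and Ighv1-55 (chr12:115208095-115208591). The cysteine codon stands just before the third complementarity-determining region, where the V segment stops and joining bases start.
Ighv2-2: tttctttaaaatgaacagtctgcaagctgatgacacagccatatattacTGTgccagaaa
Ighv5-17: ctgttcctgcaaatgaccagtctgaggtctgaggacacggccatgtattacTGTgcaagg
Ighv14-2: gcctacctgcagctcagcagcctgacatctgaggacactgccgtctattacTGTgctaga
Ighv1-55: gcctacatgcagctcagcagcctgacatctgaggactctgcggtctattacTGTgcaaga

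Kappa segments lie on both strands of chromosome 6. The ends of Igkv17-121 (chr6:68036812-68037318, plus strand) and Igkv17-127 (chr6:67861153-67861659, plus strand) are shown because the same library led both, and that of Igkv5-37 (chr6:69963312-69963873, minus strand) because its difference was the largest decrease among the 38 genes. The capitals again mark the cysteine codon.
Igkv17-121: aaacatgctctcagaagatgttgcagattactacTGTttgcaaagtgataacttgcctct
Igkv17-127: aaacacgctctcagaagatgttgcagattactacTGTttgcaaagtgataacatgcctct
Igkv5-37: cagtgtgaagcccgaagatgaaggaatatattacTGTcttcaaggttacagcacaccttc

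Across the 38 genes, 29 had a higher mean log2 level in Gab1IEC-KO colons and 9 a lower one, beside 70% higher and 30% lower among all listed genes. The chains differed in direction: 13 heavy genes were higher and 4 lower, 15 kappa segments were higher and 2 lower, and 1 lambda gene was higher and 3 lower. The median log2 fold change was 1.19 for heavy, 1.32 for kappa and -0.81 for lambda genes, against 0.79 over all listed genes. All log2 fold changes are Gab1IEC-KO minus Gab1fl/fl on the scale of log2(normalized count + 1), which understates the change of genes at low level. A second scaling (TMM) took its factors from the listed genes other than immunoglobulins. Those genes were themselves listed for a difference, so this scaling cannot tell which baseline is right, here or for the single genes below. With it the median of all listed genes went from 0.79 to 0.23, a shift of -0.55. Then 28 of the 38 genes were higher and 10 lower, and the gene that turned was Igkv4-74, at 0.46 and then -0.10.

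A call needed an unadjusted limma p under 0.05 and a log2 fold change beyond 1 in either direction. By this rule 14 of the 38 genes were called higher, where 28.5% of all listed genes were, and 3 were called lower, where 9.16% were. The calls higher comprised 7 heavy and 7 kappa segments, the calls lower were Ighv2-2, Igkv13-85 and Igkv5-37, and 0 of the 4 lambda genes were called. With TMM scaling the calls became 4 higher and 9 lower among the 38 genes, and 223 higher and 573 lower (10.2% and 26.1%) in place of 625 and 201 over all listed genes. After Benjamini-Hochberg adjustment over 16716 genes limma left 0 of the 38 genes under 0.05 (0% of all listed genes), with 19 of them under 0.05 unadjusted (55% of all listed genes) and a lowest adjusted p of 0.384. On whole reads recovered from the values, edgeR left 0 of the 38 genes (0% of all listed genes), with 24 under 0.05 unadjusted (54.9% of all listed genes). DESeq2 left 5 (5.33% of all listed genes), with 31 under 0.05 unadjusted (64% of all listed genes). The 5 were Igkv5-37, Ighv3-8, Igkv13-85, Ighv1-55 and Ighv1-85.

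Groups did not overlap for 12 genes that were higher, where 43% of all listed genes had every Gab1IEC-KO library above every Gab1fl/fl library, and for 5 that were lower, where 19.3% did. The total of 17 of 38 genes stood beside 62.2% of all listed genes. With 3 libraries per genotype, the smallest two-sided p of an exact permutation test is 0.1.

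**Figure D1:**
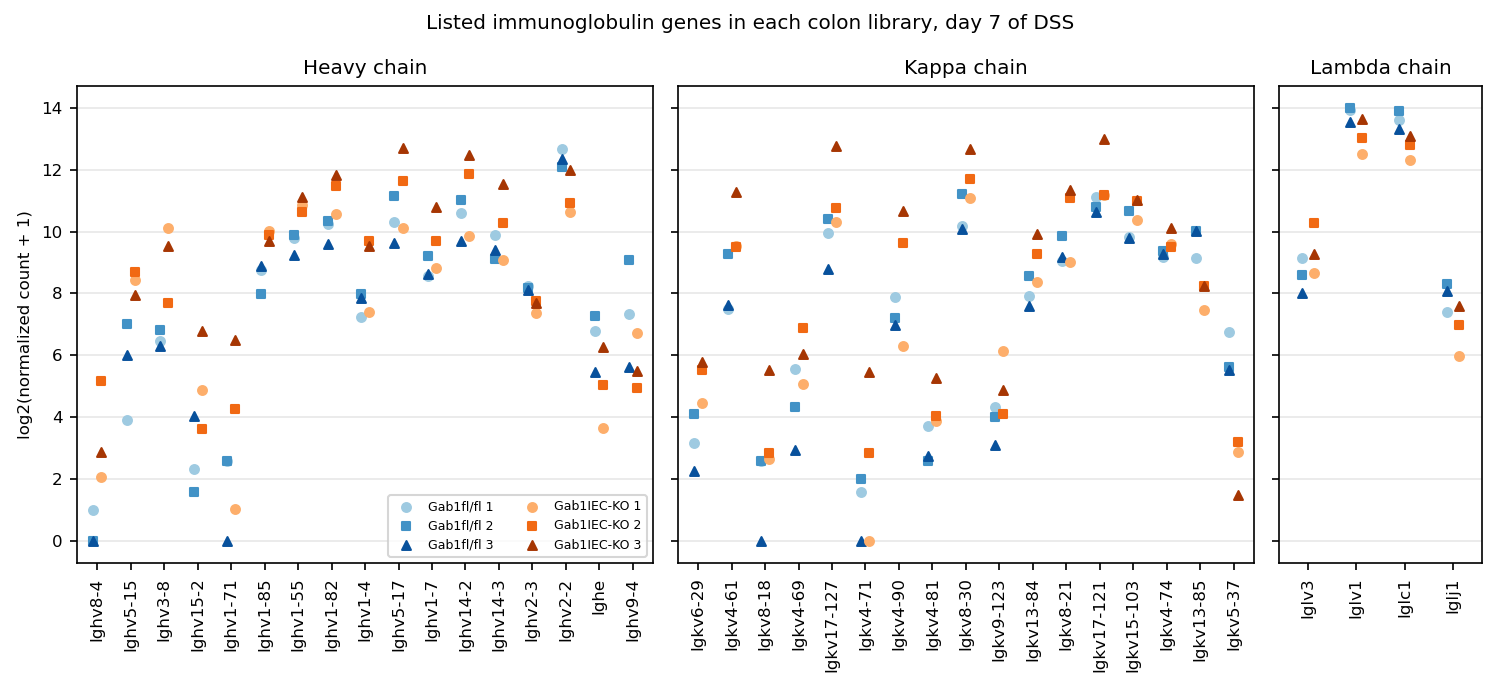
Log2(normalized count + 1) of the 38 immunoglobulin genes by chain, with each point 1 library (circle, square and triangle for replicates 1, 2 and 3) and genes sorted by log2 fold change within a chain. On the deposited scaling Gab1IEC-KO 3 is above every Gab1fl/fl library in all 29 genes with a higher mean, whereas Iglv1, Iglj1 and Iglc1 have lower means in Gab1IEC-KO.

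The lambda 1 genes Iglv1, Iglj1 and Iglc1 all had lower means in Gab1IEC-KO colons, and none was called on the deposited scaling. Iglv1, the variable segment of the lambda 1 chain, had 15379, 16367 and 11831 normalized counts in the Gab1fl/fl libraries and 5848, 8235 and 12832 in the Gab1IEC-KO libraries, so that the third Gab1IEC-KO library lay within the Gab1fl/fl range. Iglc1, the constant gene of the same chain, had 12352, 15250 and 10265 normalized counts in Gab1fl/fl and 5058, 7158 and 8774 in Gab1IEC-KO. Its groups did not overlap. Iglj1, the short joining segment between them, had 167, 315 and 267 normalized counts in Gab1fl/fl and 61.5, 127 and 191 in Gab1IEC-KO, and the highest Gab1IEC-KO library passed the lowest Gab1fl/fl library.

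The log2 fold change was -0.76 for Iglv1 (standard error 0.29, limma adjusted p = 0.63), -0.87 for Iglc1 (standard error 0.25, adjusted p = 0.478) and -1.07 for Iglj1 (standard error 0.48, adjusted p = 0.703). Without Gab1IEC-KO 3 these values were -1.05, -1.05 and -1.44, and with TMM scaling -1.31, -1.43 and -1.62, each then past the limits of a call. Iglc1 was also called without Gab1fl/fl 3 (-1.01) and Iglj1 without Gab1fl/fl 1 (-1.34). The ratio of Iglv1 to Iglc1 per base of gene length stayed between 1.25 and 1.70 in the 6 libraries, and the highest ratio was that of Gab1IEC-KO 3. Iglv1 has a close copy in Iglv2, 96.9% identical over the coding sequence, and reads that fit both could be split or dropped in counting.

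Iglv3, the other lambda V segment listed, differed in the opposite direction. It had 568, 387 and 260 normalized counts in Gab1fl/fl and 406, 1237 and 622 in Gab1IEC-KO, and the groups overlapped (log2 fold change 0.82, standard error 0.46, limma adjusted p = 0.948). It was called without Gab1IEC-KO 1 (1.19) and not with all libraries. The normalized count of Iglv1 was 27.1 to 45.6 times that of Iglv3 in the Gab1fl/fl libraries and 6.66 to 20.6 times in the Gab1IEC-KO libraries, and their gene lengths are 391 and 381 bases. These ratios did not overlap between the genotypes, though the groups overlapped for each gene alone. Both genes were listed for a difference between these same libraries, in opposite directions. A separation of their ratio is therefore partly built in by the listing and is not independent evidence.

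**Figure D2:**
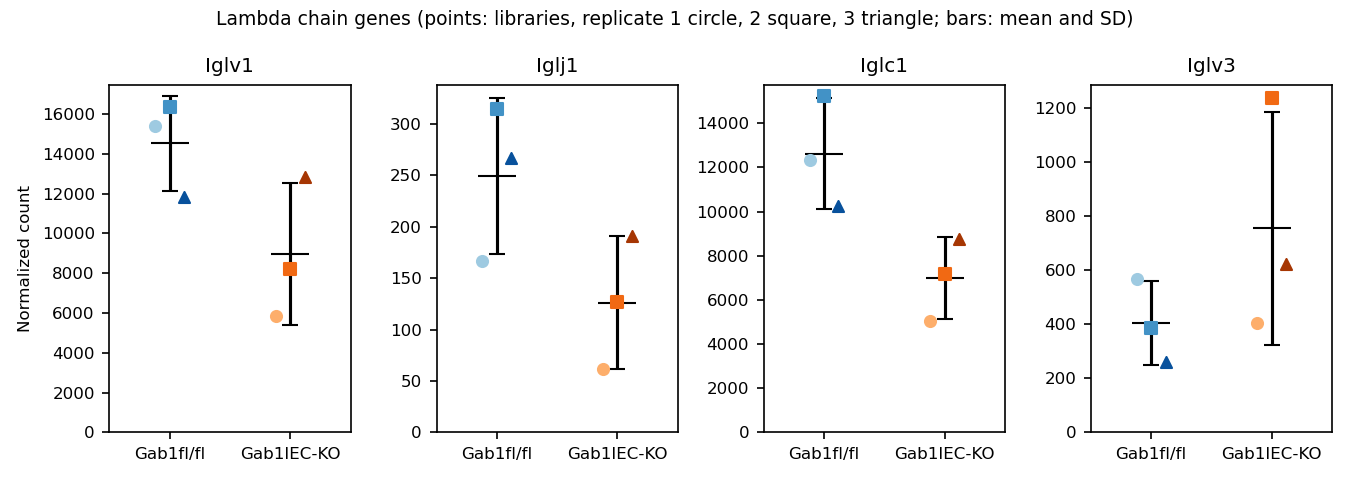
Normalized counts of the 4 lambda genes in each library (points), with the mean and SD of 3 libraries per genotype (bars). Iglv1, Iglj1 and Iglc1 have lower means in Gab1IEC-KO, with Gab1IEC-KO 3 the highest library of its group, and Iglv3 has a higher mean with Gab1IEC-KO 2 at 1237.

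Among heavy chain segments, Ighv2-2 had the highest mean level per base of those listed and was lower in Gab1IEC-KO. It had 6560, 4368 and 5140 normalized counts in Gab1fl/fl and 1583, 1918 and 4018 in Gab1IEC-KO, and the groups did not overlap (log2 fold change -1.20, standard error 0.36, limma adjusted p = 0.485). Without Gab1IEC-KO 1 the log2 fold change was -0.93 and the call was lost. Per base of gene length, Ighv2-2 made up 48.9%, 33.6% and 51.3% of the 16 listed heavy V segments in the Gab1fl/fl libraries and was first in each. It made up 15.6% in Gab1IEC-KO 1, level with Ighv1-55 at 15.6%. Gab1IEC-KO 2 was led by Ighv14-2 with 22.3%, and Gab1IEC-KO 3 by Ighv5-17 with 20.6%, next to Ighv14-2 with 20.4%. The leading listed heavy segment was thus the same in the 3 Gab1fl/fl libraries and differed among the 3 Gab1IEC-KO libraries. Ighv2-2 is 97.7% identical to Ighv2-4 over the coding sequence, so its count carries the uncertainty of shared reads.

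The related Ighv2-3 was also lower, with 302, 286 and 274 normalized counts in Gab1fl/fl and 166, 213 and 207 in Gab1IEC-KO. Its groups did not overlap, and the log2 fold change of -0.56 (standard error 0.27) was not called but became -1.12 with TMM scaling and was then called. Ighv9-4 differed by its second Gab1fl/fl library, with 160, 542 and 48.8 normalized counts in Gab1fl/fl and 104, 29.6 and 43.8 in Gab1IEC-KO. That library held 58.4% of its counts over the 6 libraries, and its log2 fold change of -1.64 (standard error 0.86) was -0.77 without it. The segment was not called, but it was called with TMM scaling, at -2.19, and without Gab1fl/fl 3, at -2.49.

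Ighe, the constant gene of IgE, was the only heavy constant gene listed, and its groups overlapped. It had 109, 154 and 43.1 normalized counts in Gab1fl/fl and 11.7, 31.7 and 75.7 in Gab1IEC-KO (log2 fold change -1.52, standard error 0.74, limma adjusted p = 0.756). It was not called, but it was past the limits without Gab1IEC-KO 3 (-2.16), without Gab1fl/fl 3 (-2.05) and with TMM scaling (-2.07).

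Several heavy segments were higher in every Gab1IEC-KO library. Ighv1-55 had the smallest standard error of them, with 891, 944 and 603 normalized counts in Gab1fl/fl and 1864, 1597 and 2209 in Gab1IEC-KO (log2 fold change 1.23, standard error 0.26, limma adjusted p = 0.384). It stayed called when any 1 library was left out but not with TMM scaling, at 0.67. Ighv1-82 had 1213, 1292 and 770 normalized counts in Gab1fl/fl and 1498, 2813 and 3657 in Gab1IEC-KO. Its log2 fold change of 1.22 was called, and the call was lost without Gab1IEC-KO 3 (0.95), without Gab1fl/fl 3 (0.99) and with TMM scaling (0.67). Ighv1-85, named after its values were seen because DESeq2 called it, had 430, 254 and 477 normalized counts in Gab1fl/fl and 1031, 947 and 821 in Gab1IEC-KO. Every Gab1IEC-KO library lay above every Gab1fl/fl library, and the highest was Gab1IEC-KO 1. The log2 fold change of Ighv1-85 was 1.31 (standard error 0.30, limma adjusted p = 0.384), and it was called, but not with TMM scaling.

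Ighv3-8 and Ighv5-15 had larger differences at lower level. Ighv3-8 had 87.3, 111 and 77.6 normalized counts in Gab1fl/fl and 1102, 206 and 748 in Gab1IEC-KO (log2 fold change 2.60, standard error 0.59, limma adjusted p = 0.384). Here the first Gab1IEC-KO library was the highest, with 53.6% of the Gab1IEC-KO counts, and without Gab1IEC-KO 2 the log2 fold change was 3.31. Ighv5-15 had 14.0, 129 and 63.2 normalized counts in Gab1fl/fl and 342, 414 and 244 in Gab1IEC-KO (log2 fold change 2.70, standard error 0.74, adjusted p = 0.438), and its groups did not overlap. The value was 1.84 without Gab1fl/fl 1 and 3.39 without Gab1fl/fl 2, and it stayed called in both. With TMM scaling the log2 fold changes of Ighv3-8 and Ighv5-15 were 2.04 and 2.15. Both segments stayed called there and when any 1 library was left out.

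The annotated Ighv3-8 (chr12:114322327-114322801, minus strand) runs on past the end of the V segment. Its last 60 coding bases are shown because they hold CACAGTG, the heptamer of the recombination signal beside which V segments are cut, in capitals.
Ighv3-8: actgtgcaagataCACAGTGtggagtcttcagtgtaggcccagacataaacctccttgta
The motif was searched on the coding strand of the last 60 coding bases, and it was found in 1 of the 35 listed V segments and in 1 of 306 V transcripts of GENCODE M21 (0.327%). Bases beyond the heptamer are lost from a rearranged transcript, and how many of the counts fell there was not given by counts per gene.

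Ighv5-17 and Ighv14-2, both abundant, were higher in 2 of 3 Gab1IEC-KO libraries. Ighv5-17 had 1277, 2250 and 797 normalized counts in Gab1fl/fl and 1109, 3193 and 6587 in Gab1IEC-KO, and Ighv14-2 had 1547, 2082 and 832 in Gab1fl/fl and 925, 3751 and 5651 in Gab1IEC-KO. For both, Gab1IEC-KO 1 lay within the Gab1fl/fl range and Gab1IEC-KO 3 was highest. Neither was called, and leaving out Gab1IEC-KO 1 raised the log2 fold changes from 1.12 to 1.80 and from 0.96 to 1.73, each then called.

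At the lowest levels, a single library held most of the counts of a few heavy segments. Ighv8-4 had 1 read over the 3 Gab1fl/fl libraries and 44 over the 3 Gab1IEC-KO libraries, a ratio of 44.1 with an exact 95% counting interval of 7.51 to 1780, which covers counting error only. Gab1IEC-KO 2 held 76.7% of its counts over the 6 libraries. Its groups did not overlap, and it was called with all libraries (log2 fold change 3.04) and without any 1 of them, at 2.14 without Gab1IEC-KO 2 and 3.69 without Gab1IEC-KO 1. Ighv1-71 had 10 reads in Gab1fl/fl and 116 in Gab1IEC-KO, and Gab1IEC-KO 3 held 75.0% of its counts. Over the coding sequence it is 99.7% identical to Ighv1-62-2, so its count carries the uncertainty of shared reads. Ighv1-71 was not called with all libraries, at a log2 fold change of 2.20. The value was 0.93 without Gab1IEC-KO 3 and 1.34 without Gab1fl/fl 3. Without Gab1IEC-KO 1 it was 3.65, and the segment was called. Ighv15-2 had 4.01, 2.04 and 15.3 normalized counts in Gab1fl/fl and 28.6, 11.2 and 110 in Gab1IEC-KO, with 64.3% in Gab1IEC-KO 3. Its log2 fold change of 2.45 was called, and the call was lost with TMM scaling (1.95) and without Gab1fl/fl 1 (2.29), Gab1fl/fl 2 (1.92), Gab1IEC-KO 1 (2.55) or Gab1IEC-KO 3 (1.60).

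Kappa segments were mostly higher in Gab1IEC-KO, and in Igkv17-121 and Igkv17-127 the difference was smaller without Gab1IEC-KO 3. Igkv17-121, which led the kappa segments listed in 4 of 6 libraries per base, had 2216, 1756 and 1596 normalized counts in Gab1fl/fl and 2318, 2337 and 8106 in Gab1IEC-KO. Igkv17-127 had 984, 1342 and 444 normalized counts in Gab1fl/fl and 1277, 1726 and 6889 in Gab1IEC-KO. In both, the third Gab1IEC-KO library stood far above the other 5, and the coding sequences of both segments are 97.5% identical. The log2 fold change of Igkv17-121 was 0.94 (standard error 0.47, limma adjusted p = 0.789) and fell to 0.34 without Gab1IEC-KO 3. That of Igkv17-127 was 1.56 (standard error 0.66, adjusted p = 0.685) and became 0.83 without it. The call of Igkv17-127 was lost then, without Gab1fl/fl 1 (1.68) or Gab1fl/fl 3 (1.11), and with TMM scaling (1.01). It was also lost with a pseudocount of 0.1 and without the variance trend of the fit. In contrast, Igkv17-121 was called without Gab1IEC-KO 1 or Gab1IEC-KO 2, at 1.24 in both.

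Igkv8-30, which led the other 2 libraries (Gab1fl/fl 2 and Gab1IEC-KO 2), had 1164, 2361 and 1083 normalized counts in Gab1fl/fl and 2189, 3310 and 6451 in Gab1IEC-KO. Its log2 fold change of 1.32 (standard error 0.45, limma adjusted p = 0.554) was called, and the call was lost without Gab1IEC-KO 3 (0.90), Gab1fl/fl 1 (1.17) or Gab1fl/fl 3 (1.12) and with TMM scaling (0.77). Igkv8-21 had 528, 923 and 576 normalized counts in Gab1fl/fl and 522, 2167 and 2615 in Gab1IEC-KO, where the first library lay below all Gab1fl/fl libraries. It was not called with all libraries (log2 fold change 1.13), and of the fits without 1 library, that without Gab1IEC-KO 1 alone called it (1.86). Igkv15-103 had 910, 1602 and 888 normalized counts in Gab1fl/fl and 1339, 2015 and 2089 in Gab1IEC-KO, and its log2 fold change of 0.71 (standard error 0.31) was not called.

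Igkv4-61 and Igkv4-90 belong to the large Igkv4 family. Igkv4-61 had 181, 620 and 196 normalized counts in Gab1fl/fl and 742, 727 and 2505 in Gab1IEC-KO (log2 fold change 1.98, standard error 0.63, limma adjusted p = 0.509), and its groups did not overlap. The call was lost with TMM scaling (1.42) and without Gab1fl/fl 3 (1.72), and the ratio of means fell from 3.99 to 2.21 without Gab1IEC-KO 3. Igkv4-90 had 235, 148 and 125 normalized counts in Gab1fl/fl and 77.5, 792 and 1605 in Gab1IEC-KO. Gab1IEC-KO 1 thus lay below every Gab1fl/fl library for Igkv4-90 and the other Gab1IEC-KO libraries above. Its mean was 4.87-fold higher in Gab1IEC-KO, 2.57-fold without Gab1IEC-KO 3 and 7.08-fold without Gab1IEC-KO 1. It was not called with all libraries and was called without Gab1IEC-KO 1. At low level, Igkv6-29 had 8.03, 16.3 and 3.83 normalized counts in Gab1fl/fl and 21.2, 44.9 and 54.7 in Gab1IEC-KO. Its groups did not overlap, and its log2 fold change of 2.08 (standard error 0.60, limma adjusted p = 0.478) was called. It stayed called with TMM scaling (1.56) and when any 1 library was left out. Igkv8-18 had 10 reads in Gab1fl/fl and 60 in Gab1IEC-KO, 67.5% of its counts being in Gab1IEC-KO 3, and was not called. Over the coding sequence, Igkv6-29 is 98.6% identical to Igkv6-20 and Igkv8-18 is 98.1% identical to Igkv8-26.

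Only Igkv5-37 and Igkv13-85 were lower among the kappa segments listed, and both were called. Igkv5-37 had 107, 48.9 and 45.01 normalized counts in Gab1fl/fl and 6.37, 8.17 and 1.82 in Gab1IEC-KO, a log2 fold change of -3.45 (standard error 0.59, limma adjusted p = 0.384). Igkv13-85 had 571, 1047 and 1041 normalized counts in Gab1fl/fl and 177, 301 and 298 in Gab1IEC-KO, a log2 fold change of -1.76 (standard error 0.35, adjusted p = 0.384). Neither had overlapping groups, and both stayed called when any 1 library was left out.

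Igkv13-85 has a neighbour of the same family, Igkv13-84, which was higher and is named after its values were seen. Igkv13-84 had 239, 378 and 194 normalized counts in Gab1fl/fl and 332, 624 and 968 in Gab1IEC-KO, a log2 fold change of 1.17 (standard error 0.44, limma adjusted p = 0.617). Its groups overlapped, and it was called, but not without Gab1IEC-KO 3 (0.81). The last 300 coding bases of Igkv13-84 (chr6:68939602-68940067, plus strand) and Igkv13-85 (chr6:68930269-68930734, minus strand) are shown because the segments are 96.3% identical yet differed in opposite directions, and the capitals mark the bases in which they differ.
Igkv13-84: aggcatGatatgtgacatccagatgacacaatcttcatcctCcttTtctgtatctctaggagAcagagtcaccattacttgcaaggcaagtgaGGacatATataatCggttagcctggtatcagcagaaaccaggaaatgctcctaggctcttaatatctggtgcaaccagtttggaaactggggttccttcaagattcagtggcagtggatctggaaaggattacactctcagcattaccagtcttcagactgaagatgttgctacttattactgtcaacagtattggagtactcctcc
Igkv13-85: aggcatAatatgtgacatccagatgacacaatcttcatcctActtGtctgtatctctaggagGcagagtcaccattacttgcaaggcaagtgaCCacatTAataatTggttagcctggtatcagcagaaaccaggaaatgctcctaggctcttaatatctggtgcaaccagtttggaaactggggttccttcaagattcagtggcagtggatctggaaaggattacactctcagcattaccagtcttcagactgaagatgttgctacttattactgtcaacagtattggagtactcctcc
The ratio of Igkv13-84 to Igkv13-85 was 0.42, 0.36 and 0.19 in the Gab1fl/fl libraries and 1.87, 2.07 and 3.24 in the Gab1IEC-KO libraries, and the sum of both was 0.78 times as high in Gab1IEC-KO. The differences lie towards the start of the printed stretch and the rest is identical, so a read from the identical part cannot be assigned to either. How the counting treated such reads was not given in the sources used here.

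All segments not yet given were higher in Gab1IEC-KO on the deposited scaling. They were Ighv1-4, Ighv1-7 and Ighv14-3 of the heavy chain and Igkv4-69, Igkv4-71, Igkv4-74, Igkv4-81 and Igkv9-123 of the kappa chain, with log2 fold changes from 0.46 for Igkv4-74 to 1.73 for Igkv4-69. Igkv4-69 and Igkv4-81 were called. Of the 38 genes, 2 (Ighv8-4 and Igkv4-71) had a mean under 10 normalized counts over the 6 libraries, and the rest lay above it.

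Reads shared between copies touch the whole set. Of the 38 genes, 19 had another annotated gene that was at least 95% identical over the coding sequence. Among listed pairs at this limit, Ighv1-4 with Ighv1-7 (96.9% identical) and Igkv17-121 with Igkv17-127 (97.5%) differed in the same direction. Igkv13-84 and Igkv13-85 (96.3%) differed in opposite directions. Ighv14-2 and Ighv14-3, whose nearest copy is Ighv14-1, a gene not listed, also differed in the same direction.

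**Figure D3:**
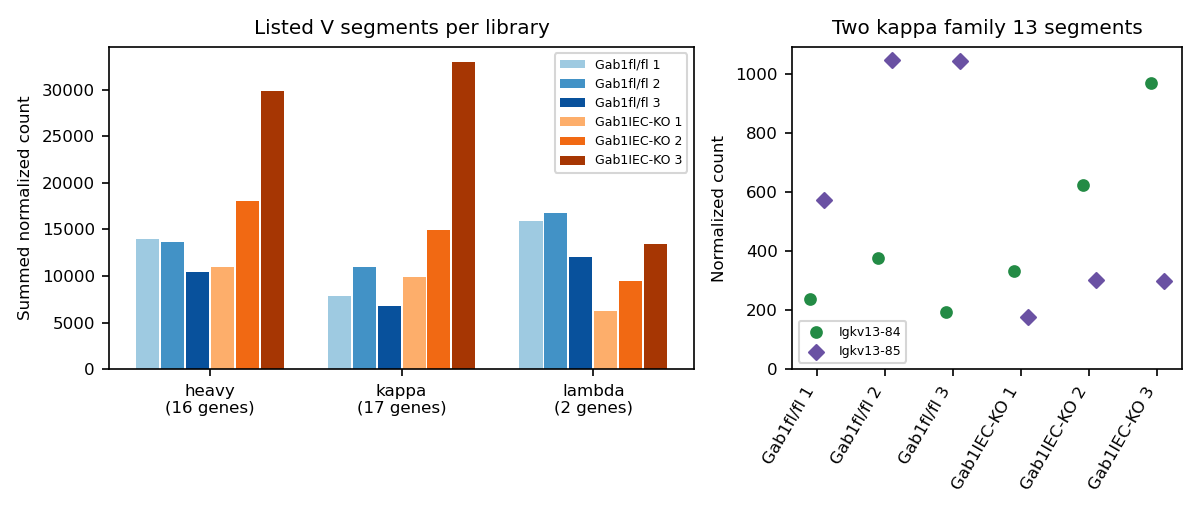
Left, summed normalized counts of the listed V segments of each chain in each library, and right, normalized counts of Igkv13-84 (circles) and Igkv13-85 (diamonds) in each library. Heavy and kappa sums are highest in Gab1IEC-KO 3, lambda sums are highest in Gab1fl/fl 2, and Igkv13-84 is above Igkv13-85 in the 3 Gab1IEC-KO libraries alone.

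Summed over listed V segments, the heavy chain had 13977, 13661 and 10395 normalized counts in Gab1fl/fl and 10916, 18029 and 29846 in Gab1IEC-KO. Kappa had 7803, 10954 and 6835 in Gab1fl/fl and 9889, 14941 and 32915 in Gab1IEC-KO, and lambda had 15947, 16754 and 12091 in Gab1fl/fl and 6254, 9472 and 13454 in Gab1IEC-KO. The groups overlapped in each chain. The ratio of means, Gab1IEC-KO to Gab1fl/fl, was 1.55 for heavy (2.33 without Ighv2-2), 2.26 for kappa and 0.65 for lambda V segments (1.87 without Iglv1, which leaves Iglv3 alone). Without Gab1IEC-KO 3 the kappa ratio was 1.46, and the heavy and lambda ratios were 1.14 and 0.53. These sums hold only listed genes, and so do not give the total of a chain.

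The segments were also described by how far a single library held their counts. A single library held over 50% of the counts of the 6 libraries in 9 of 38 genes (23.7%), where this was so in 5.01% of all listed genes. The library was Gab1IEC-KO 3 in 7 genes, Gab1IEC-KO 2 in Ighv8-4 and Gab1fl/fl 2 in Ighv9-4. The 7 genes of Gab1IEC-KO 3 were Ighv1-71, Ighv15-2, Igkv4-61, Igkv4-71, Igkv4-90, Igkv8-18 and Igkv17-127. Just outside the limit, Igkv5-37 had 49.3% in Gab1fl/fl 1, and just inside it, Igkv4-61 had 50.4%. With TMM scaling 6 genes passed the limit, and 7 did among genes with a mean of at least 10 normalized counts. Shares over all listed genes are not given here for these settings. The median share of the highest library was 38.2% for heavy, 41.8% for kappa and 26.9% for lambda genes, beside 29.0% over all listed genes.

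Among the 29 genes with a higher mean, Gab1IEC-KO 3 was the highest Gab1IEC-KO library in 21 (72.4%), where it was so in 61.9% of all listed genes with a higher mean. Gab1IEC-KO 3 lay above every Gab1fl/fl library in 29 of these genes, Gab1IEC-KO 2 in 27 and Gab1IEC-KO 1 in 14. Gab1IEC-KO 1 was the lowest of its group in 21 genes, and in 3 it lay below every Gab1fl/fl library. Of the 14 genes called higher, 7 were still called without Gab1IEC-KO 3. For these counts by library the shares over all listed genes are not given here, so they cannot be read as particular to immunoglobulin genes. The median log2 fold change without it was 0.87 for heavy, 0.81 for kappa and -1.05 for lambda genes, against 0.63 over all listed genes, and no gene of the 38 changed sign when any 1 library was left out.

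**Figure D4:**
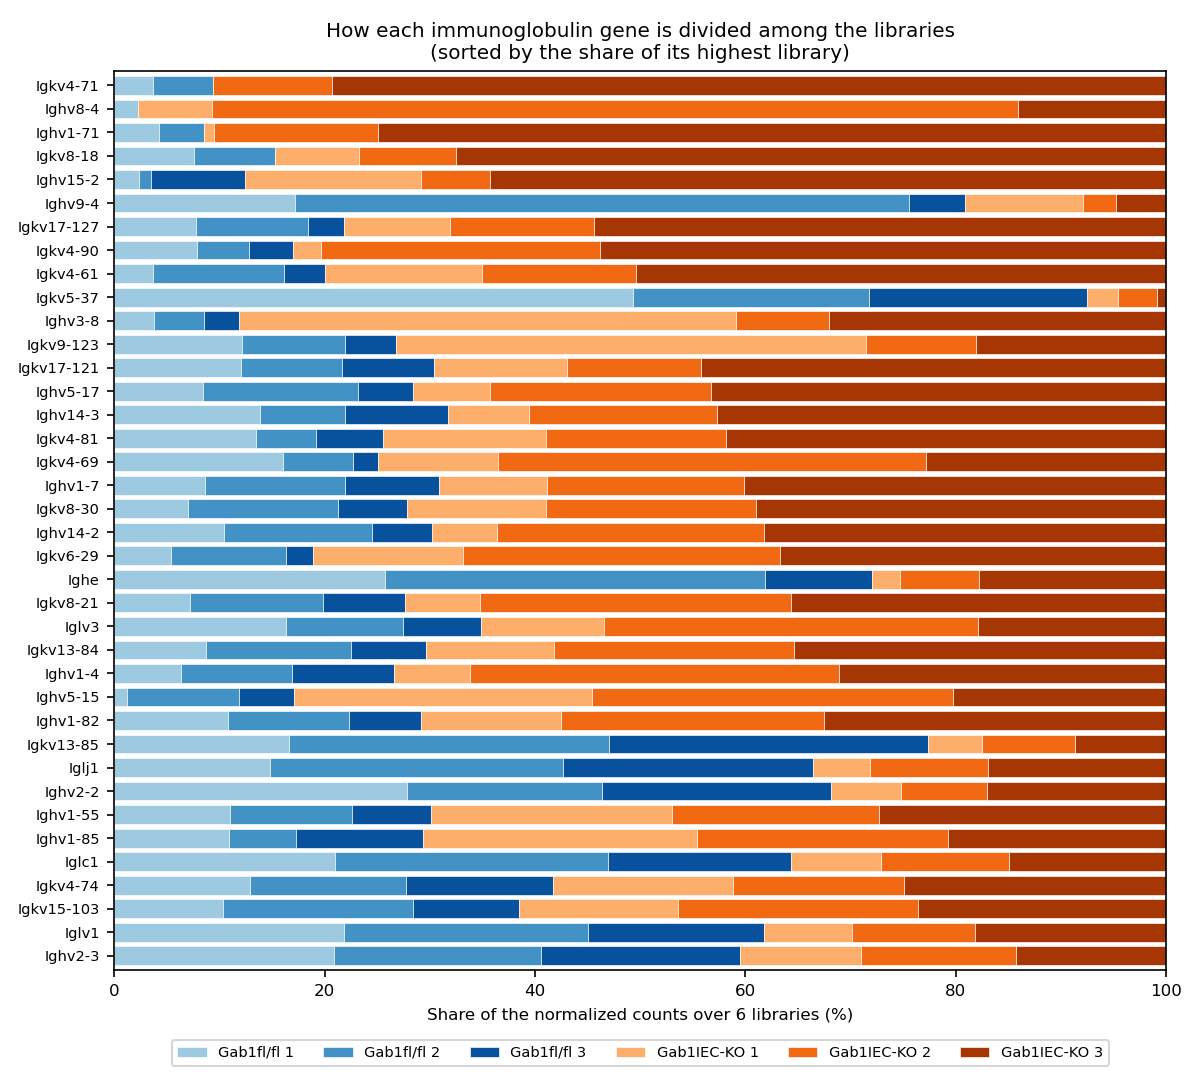
Share of the normalized counts of each immunoglobulin gene held by each of the 6 libraries, with genes sorted by the share of their highest library. The top bars are mostly Gab1IEC-KO 3, with Ighv8-4 led by Gab1IEC-KO 2 and Ighv9-4 by Gab1fl/fl 2, and the lambda 1 genes lie near the bottom.

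Gab1IEC-KO 3 also had the most reads in listed genes, 2787670 against 1957437 to 2204738 in the other 5 libraries, although the depth of whole libraries is unknown. Its neutrophil markers summed to 4978 normalized counts and its monocyte and macrophage markers to 7266, both the highest of the 6 libraries. Of these lists, 7 of 12 neutrophil and 6 of 12 monocyte and macrophage markers were listed, and all had higher means in Gab1IEC-KO, 6 and 1 of them called, though Csf1r turned from 0.37 to -0.19 with TMM scaling. The neutrophil sums ranged from 678 to 1530 in Gab1fl/fl and from 2058 to 4978 in Gab1IEC-KO, and the monocyte and macrophage sums from 3059 to 3598 and from 4229 to 7266. Of 13 colon epithelial markers 0 were listed, and of 14 T cell markers only Il7r and Foxp3, whose sums ranged from 150 to 275 and from 266 to 422. The part of any of these in the immunoglobulin values was not tested.

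The listed B cell markers were lower in Gab1IEC-KO, whereas most listed V segments were higher. Of 16 markers 5 were listed, and all 5 were lower in Gab1IEC-KO without overlap between groups: Ms4a1 (the CD20 antigen), Fcer2a (the low-affinity IgE receptor CD23), Spib (a B cell transcription factor), Fcrla and Tnfrsf13c (the receptor of the survival factor BAFF). Ms4a1 had 486, 386 and 513 normalized counts in Gab1fl/fl and 56.2, 379 and 188 in Gab1IEC-KO, a log2 fold change of -1.52 (standard error 0.63, limma adjusted p = 0.669), and Fcer2a had a log2 fold change of -1.64 (standard error 0.60). Those 2 were called. Spib, Fcrla and Tnfrsf13c had log2 fold changes of -0.96, -0.91 and -1.07. The 5 markers together summed to 1302 to 1579 normalized counts in Gab1fl/fl and 327 to 1142 in Gab1IEC-KO, and Gab1IEC-KO 1 was the lowest in each. Cd79a was not among the listed genes.

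Of 14 plasma cell markers, Prdm1 and Sdc1 were listed. Prdm1, the transcription factor that drives plasma cell differentiation, had 520, 565 and 396 normalized counts in Gab1fl/fl and 559, 693 and 830 in Gab1IEC-KO. Sdc1, the syndecan CD138 that colon epithelium also expresses, had 4066, 3336 and 2338 in Gab1fl/fl and 6315, 4006 and 6317 in Gab1IEC-KO. The groups overlapped in both, neither was called, and with TMM scaling the log2 fold change of Prdm1 turned from 0.49 to -0.07. Together they summed to 2734 to 4586 normalized counts in Gab1fl/fl and 4699 to 7147 in Gab1IEC-KO. Xbp1, Mzb1 and Jchain were not listed, so the labelled tissue could not be checked for plasma cells by its defining markers.

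Among germinal centre genes, Rgs13, Mef2b and Gcsam were listed as lower without overlap, at log2 fold changes of -1.85, -0.90 and -0.78, and of these Rgs13 was called. Cxcl13, a chemokine that draws B cells into follicles, was called higher, with 2833, 1047 and 602 normalized counts in Gab1fl/fl and 2606, 4581 and 8468 in Gab1IEC-KO, and its groups overlapped. Of 8 V(D)J recombination genes 0 were listed.

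Of 14 genes of IgA induction, homing and transport, 4 were listed. Il10, an anti-inflammatory cytokine, was called higher at 1.38 (standard error 0.59, limma unadjusted p = 0.0489), and its groups overlapped. Aldh1a2, an enzyme of retinoic acid synthesis, and Tgfb1, the cytokine of IgA class switching, had log2 fold changes of 0.90 and 0.40 without overlap, and Tgfb1 turned to -0.16 with TMM scaling. Ccl28, an epithelial chemokine that attracts IgA plasma cells, had 2333, 3714 and 6092 normalized counts in Gab1fl/fl and 1491, 2024 and 3071 in Gab1IEC-KO, a log2 fold change of -0.84 with overlap.

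Receptors for the constant part of antibodies were listed in 7 of 10 cases. The IgG receptors Fcgr1, Fcgr2b, Fcgr3 and Fcgr4 and the shared signalling chain Fcer1g were higher without overlap, at log2 fold changes of 1.32, 0.82, 0.94, 1.22 and 0.81, and Fcgr1 and Fcgr4 were called. Fcmr, the receptor of IgM, and Fcamr, which binds IgA and IgM, were lower without overlap at -1.89 and -1.57, and Fcamr was called. Gab1IEC-KO 1 was the lowest library for both, with 9.55 and 34.0 normalized counts, as it was for the 5 B cell markers.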

How the data were processed

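Colon RNA of 3 Gab1fl/fl (labelled WT) and 3 Gab1IEC-KO samples was sequenced from poly-A libraries. The submitters' processing notes name HISAT2 2.0.5, featureCounts 1.5.0-p3 and the build hg18, but the coordinates are of mouse GRCm38: all 38 immunoglobulin genes and 2113 of 2195 listed genes had coordinates identical to GENCODE M21. The deposited signal of a gene is its read count over the size factor of the library (normalized count). Values were whole multiples of 1 read (worth 0.912 to 1.06) within 0.01 for 100% of values. The authors' means and log2 fold changes were not used. Their p-values (all under 0.05 unadjusted) and adjusted p-values served only to find over how many genes they had adjusted. Strand use and the treatment of multi-mapping reads are not given in the sources used here.

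Members and lists were chosen with earlier results of these data known. The test was limma 3.58.1 (R 4.3.3) on log2(value + 1) over the 2195 genes, with a mean-variance trend and Benjamini-Hochberg adjustment over 16716 genes, the number that the authors' adjusted p-values imply. Its prior rests on genes listed for their difference. Alternatives were a pseudocount of 0.1, a mean of at least 10, a replicate block, no trend, TMM scaling, leaving out each library, and edgeR 4.0.16 and DESeq2 1.42.0 on recovered reads. Chosen after seeing the data were leaving out near-identical copies (at least 95%, BLAST 2.17.0) and levels relative to the chain sum. Named genes were every C and J gene and, of each chain's V segments, the 5 most abundant, the 3 largest increases and decreases and the 3 with the highest single-library share at a mean of 10 or more. Listed members of the B cell, plasma cell, germinal centre, IgA, recombination and Fc receptor lists were also named. Ighv1-4, Ighv1-7, Ighv1-85, Ighv14-3, Igkv13-84, Igkv4-69, Igkv4-71, Igkv4-74, Igkv4-81 and Igkv9-123 were named after their values were seen. Some members of these lists are not reported here.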

Additional observations from a re-analysis of the deposited data

How the results depend on the processing

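The split into 29 higher and 9 lower genes was the same with a pseudocount of 0.1, without the variance trend, in edgeR and DESeq2 and without any 1 library. With a mean of at least 10 it was 27 and 9, and with TMM scaling 28 and 10. Calls moved more. TMM scaling left 4 higher and 9 lower calls, with medians of 0.64 for heavy and -1.37 for lambda genes, and DESeq2 made 24 higher calls (33.2% of all listed genes). Without 1 library, higher calls ranged from 7 (without Gab1fl/fl 3 or Gab1IEC-KO 3) to 24 (without Gab1IEC-KO 1), and lower calls from 2 (without Gab1IEC-KO 1) to 7 (without Gab1IEC-KO 3), with 6 without Gab1fl/fl 3. The medians then ranged from 0.87 to 1.59 for heavy, 0.81 to 1.68 for kappa and -1.05 to -0.56 for lambda genes. With near-identical copies left out, 14 of the genes that remained were higher and 5 lower, with 7 and 1 calls and a heavy median of 1.88. Relative to the summed level of the chain, medians were 0.68 for heavy, 0.30 for kappa and -0.051 for lambda genes. With a limit of 40% in place of 50%, 18 genes had a dominant library. For this limit, the near-identical copies and the fits without 1 library, shares over all listed genes are not given here. The cause of each change was not tested. The replicate block gave 16 higher and 4 lower calls (32.1% and 11.2% of all listed genes). Same-numbered libraries deviated with correlations of 0.20, 0.30 and -0.14, and differently numbered ones with -0.44 to 0.28. With 3 libraries per genotype these values cannot decide whether the numbers pair the samples, and the main fit left them unpaired. For single named genes, 305 alternative values kept their side of the limits, 36 passed them newly, 22 lost them and 0 reversed. Immunoglobulin genes with few reads, such as Ighv8-4 with 1 read in Gab1fl/fl, are limited by depth.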
